A study of Mus musculus with 6 samples.

Results

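A set of 9 transcription factors that shape effector Tregs and the T helper lineages was followed in splenic Tregs after deletion of Zfp335, a zinc finger transcription factor. Their symbols were Prdm1, Irf4, Maf, Gata3, Rora, Tbx21, Id2, Bcl6 and Ahr, and the rows carrying them were taken from the deposited count table, 9 of its 32285 rows. All 9 were among the 17307 genes that passed the filter on low counts. The WT group held 3 libraries of CD4+CD25+ cells sorted from spleens of C57BL/6 animals that the labels name wild-type littermates and the study's methods name tamoxifen-treated ERCre mice. The KO group held 3 libraries of the same sort from C57BL/6 ERCre Zfp335 fl/fl mice. In these mice Cre is fused to an altered estrogen receptor, is expressed outside Tregs as well, and acts once tamoxifen is given, so the deletion was not limited to Tregs. According to the methods, mice aged 6 weeks received tamoxifen on days 1, 3 and 5 and were sacrificed on day 7, whereas the labels do not mention tamoxifen. The labels do not say whether each library came from 1 mouse or from a pool, so p-values measure the spread between these libraries.

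Tregs are CD4+ T cells that restrain immune responses under the control of Foxp3. Resting Tregs resemble naive T cells, and on activation they become effector Tregs, which depend on Irf4 and commonly express Prdm1 (the repressor Blimp-1). Effector Tregs can also take up the master regulators of the helper lineages that they restrain: Tbx21 (T-bet) of Th1 cells, Gata3 of Th2 cells, Rora of Th17 cells, and Bcl6 of follicular helper cells. Maf acts in IL-10 production and in Th17 and follicular cells, Ahr is a ligand-activated receptor prominent at mucosal sites, and Id2 blocks E proteins by dimerizing with them.

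Of the 9 factors, 4 were higher in KO than in WT Tregs (Ahr, Bcl6, Irf4 and Rora) and 1 was lower (Maf), by edgeR's quasi-likelihood test, with p-values adjusted over all genes tested (Benjamini-Hochberg) and a threshold of 0.05. Prdm1, Gata3, Tbx21 and Id2 did not pass this threshold. The changes were small, with log2 fold changes from -0.22 for Maf to 0.42 for Ahr. Among all genes tested, 12% were called higher and 12.1% lower. Among the 9090 genes whose log2 CPM averaged 3 or more, a level that all 9 factors reached, 18.6% were called higher and 14.4% lower. The 3 KO libraries lay wholly above the 3 WT libraries for the same 4 factors and wholly below for Maf, against 19.3% of all genes wholly above and 19.1% wholly below. No factor changed by 1.5-fold, the cutoff used in the study.

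**Figure D1:**
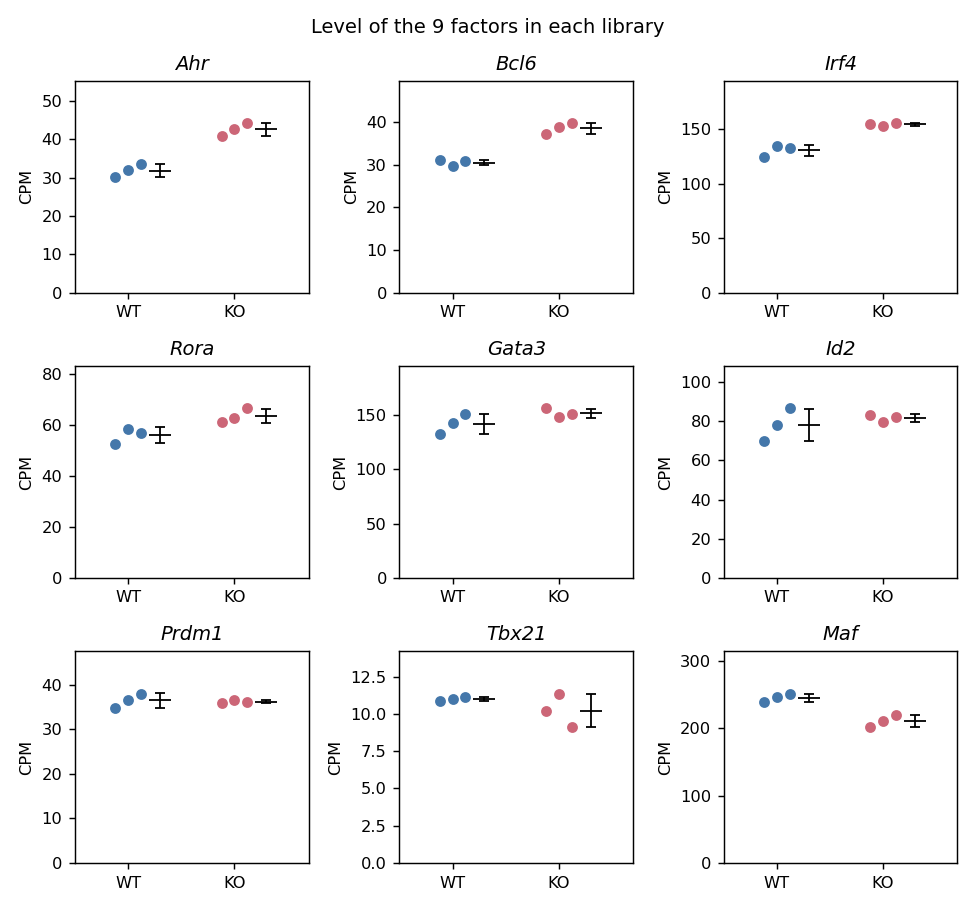
Level of each of the 9 factors in CPM (counts scaled to the library size, vertical axis from 0) in the 3 WT (blue) and 3 KO (red) libraries, with the group mean and SD in black. The KO points of Ahr, Bcl6, Irf4 and Rora lie above all WT points, those of Maf lie below, and the groups overlap for Gata3, Id2, Prdm1 and Tbx21.

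Factors of this kind bind short DNA motifs, many of them just upstream of gene starts, and these stretches were matched by symbol in RefSeq (build GRCm38.p6) for 7 of the 9 factors, all but Maf and Ahr. Both strands of the 250 upstream bases were searched for GCGTG, the core that AHR recognizes. They were also searched for TTCNNNGAA, a palindrome shared by BCL6 and STAT proteins, and for the AP-1 site TGANTCA. For GATA3 the letters were AGATAA and, as an alternative form, TGATAA. The T-box search used GGTGTGA. That for ROR proteins used AGGTCA, and that for MAF proteins TGCTGAC. The E-box of E proteins was taken as CANNTG, and no 2 of these motifs overlapped in a printed match. The stretches printed here are those of 3 factors that rose, Bcl6, Irf4 and Rora, and of Prdm1, which did not pass the test but holds 2 copies of the AHR core. Each is written 5′ to 3′ on the strand of the gene and ends at a RefSeq start, or for Irf4 at the annotated exon. The Prdm1 start used and the second start of Bcl6 lie inside the gene spans given below. Capitals mark matches to TTCNNNGAA in Bcl6, to GCGTG (read as CACGC) in Irf4, Rora and Prdm1, and to TGANTCA in Prdm1.
Bcl6 first start, chr16:23988853-23989102, minus strand: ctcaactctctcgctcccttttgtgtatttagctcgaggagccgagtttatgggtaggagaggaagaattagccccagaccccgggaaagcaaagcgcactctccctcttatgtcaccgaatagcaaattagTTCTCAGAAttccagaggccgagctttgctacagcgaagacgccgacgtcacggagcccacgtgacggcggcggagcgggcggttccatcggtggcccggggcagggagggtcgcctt
Bcl6 second start, chr16:23981284-23981533, minus strand: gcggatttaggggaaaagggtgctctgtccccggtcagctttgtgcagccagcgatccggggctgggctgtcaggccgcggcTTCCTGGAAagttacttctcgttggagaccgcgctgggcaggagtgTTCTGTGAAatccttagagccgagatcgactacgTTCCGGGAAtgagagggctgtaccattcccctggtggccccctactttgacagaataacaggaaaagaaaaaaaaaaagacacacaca
Irf4, chr13:30748983-30749225, plus strand: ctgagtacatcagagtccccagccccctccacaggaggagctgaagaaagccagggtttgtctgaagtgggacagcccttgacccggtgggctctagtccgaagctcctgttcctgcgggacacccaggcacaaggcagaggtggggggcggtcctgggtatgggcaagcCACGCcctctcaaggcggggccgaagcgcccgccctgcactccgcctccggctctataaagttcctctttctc
Rora, chr9:68653536-68653785, plus strand: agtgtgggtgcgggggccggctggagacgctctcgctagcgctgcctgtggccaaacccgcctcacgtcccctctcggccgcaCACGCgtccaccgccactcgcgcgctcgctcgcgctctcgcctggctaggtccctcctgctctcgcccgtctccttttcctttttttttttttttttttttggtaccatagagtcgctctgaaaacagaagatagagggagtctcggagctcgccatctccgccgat
Prdm1, chr10:44458749-44458998, minus strand: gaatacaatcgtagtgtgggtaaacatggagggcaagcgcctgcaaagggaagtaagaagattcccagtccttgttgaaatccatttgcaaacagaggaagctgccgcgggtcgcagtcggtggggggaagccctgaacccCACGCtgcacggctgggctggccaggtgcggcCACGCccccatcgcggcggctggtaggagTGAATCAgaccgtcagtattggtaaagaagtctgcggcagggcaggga
Bcl6 has a pair of annotated starts, and TTCNNNGAA stood once upstream of the first, at 118 bases, and 3 times upstream of the second, at 168, 122 and 88 bases. These letters occurred at least once in 7.02% of the 32851 promoter entries. The AHR core stood 80 bases upstream of the RefSeq start of Irf4, a distance that includes 7 exonic bases not printed above. It stood 167 bases upstream of Rora, and 109 and 77 bases upstream of the Prdm1 start used, and 28.2% of entries held it. Prdm1 also held the AP-1 letters, 48 bases upstream, as did 6.75% of entries. No GATA, T-box, ROR or MAF letters were found in the windows of the 7 factors, where 16.6%, 3.33%, 14% and 3.81% of entries held them. All 250 bases of the Gata3 window and 161 of the 250 bases of the Id2 window were annotated as exon. E-box letters, present in 66.2% of entries, stood upstream of Prdm1, Tbx21, Id2 and the first start of Bcl6. These matches describe letters only, and factors with the AHR core included both members that rose and one, Prdm1, that did not pass the test.

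Irf4 and Prdm1 are the factors most closely tied to the effector Treg state, and only Irf4 passed the test. Irf4 (chr13:30749226-30766976, plus strand, GRCm38), which binds DNA with BATF and AP-1 proteins, was at 124.7, 134.4 and 132.4 CPM in WT and at 154.6, 153.2 and 155.3 CPM in KO. All KO libraries were above all WT libraries, and the mean rose from 130.5 ± 5.12 to 154.3 ± 1.08 CPM (SD, n = 3 libraries each). Its log2 fold change was 0.24 (SE 0.036, 95% interval 0.16 to 0.32, edgeR adjusted p = 0.000288), an increase of 18.3%. Prdm1 (chr10:44437177-44528501, minus strand) was at 34.8, 36.6 and 38.0 CPM in WT and at 35.8, 36.5 and 36.04 CPM in KO. The KO values lay inside the WT range, the log2 fold change was -0.01 (95% interval -0.11 to 0.09), and the adjusted p was 0.896 by the same edgeR test.

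Ahr had the largest change of the 9. This receptor (chr12:35497974-35535038, minus strand) was at 30.1, 32.0 and 33.5 CPM in WT and at 40.9, 42.8 and 44.2 CPM in KO, so that the lowest KO library stood well above the highest WT library. The log2 fold change was 0.42 (SE 0.05, 95% interval 0.31 to 0.53, edgeR adjusted p = 4.17e-05), an increase of 34.1%. Of the 9090 genes whose log2 CPM averaged 3 or more, 4.86% changed by at least as much in either direction. An exon of Gm48236 overlaps 127 bases of Ahr exons on the other strand, but this gene had between 47 and 139 counts per library, against 4514 to 8873 for Ahr.

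Bcl6 showed the second largest rise. This repressor (chr16:23965052-23988852, minus strand) is the master regulator of follicular helper cells. It was at 31.0, 29.8 and 30.8 CPM in WT and at 37.1, 38.8 and 39.7 CPM in KO. The WT libraries were tightly grouped and all KO libraries were higher, with a log2 fold change of 0.34 (SE 0.045, 95% interval 0.24 to 0.43, edgeR adjusted p = 0.000108). This corresponds to 26.4% more RNA in KO.

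The Th17 factor Rora (chr9:68653786-69388246, plus strand) rose by less and with less margin. Its level was 52.5, 58.5 and 56.8 CPM in WT and 61.2, 62.7 and 66.5 CPM in KO, with no overlap but with a narrow gap between the highest WT and the lowest KO library. The log2 fold change was 0.18 (SE 0.048, 95% interval 0.08 to 0.28, edgeR adjusted p = 0.0145). Without KO replicate 3, the highest library, it was 0.15 with an adjusted p of 0.0833 in edgeR's test, and the call was lost. Over all alternatives the adjusted p of Rora ranged from 0.0034 to 0.0833.

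Maf was the one factor that fell. It encodes c-MAF (chr8:115682942-115707794, minus strand) and was at 239.3, 245.7 and 251.4 CPM in WT and at 202.4, 211 and 219.4 CPM in KO. Every KO library was below every WT library, and the mean fell from 245.5 ± 6.07 to 210.9 ± 8.504 CPM (SD, n = 3 libraries each). The log2 fold change was -0.22 (SE 0.037, 95% interval -0.30 to -0.14, edgeR adjusted p = 0.000807). The antisense gene Gm15655 overlaps 5.34% of the exon bases of Maf and had at most 1 count in any library.

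The Th1 and Th2 master regulators were not called. Gata3 (chr2:9857078-9890034, minus strand) was at 132.5, 142.4 and 150.5 CPM in WT and at 156.0, 147.9 and 150.5 CPM in KO, and the groups overlapped. Its log2 fold change was 0.10 (95% interval 0.00 to 0.19, edgeR adjusted p = 0.143). Tbx21 (chr11:97098071-97115331, minus strand) was at 10.9, 11.0 and 11.1 CPM in WT and at 10.2, 11.4 and 9.15 CPM in KO, where the libraries spread more widely on both sides of the WT values. Its log2 fold change was -0.10 (95% interval -0.27 to 0.07, edgeR adjusted p = 0.398). Id2 (chr12:25093799-25097140, minus strand) was at 70.2, 78.3 and 86.6 CPM in WT and at 83.4, 79.7 and 82.3 CPM in KO, so that the KO libraries fell within the wider WT range. Its log2 fold change was 0.06 (95% interval -0.07 to 0.20, edgeR adjusted p = 0.511). Both Gata3 and Id2 turned on WT replicate 3: without it their log2 fold changes were both 0.14, with adjusted p values of 0.0207 and 0.0472 in edgeR's test, against ranges of 0.0207 to 0.379 and 0.0472 to 0.901 over all alternatives. WT replicate 1 was the lowest WT library for 8 of the 9 factors, whereas it was the lowest for 41% of genes whose log2 CPM averaged 3 or more.

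**Figure D2:**
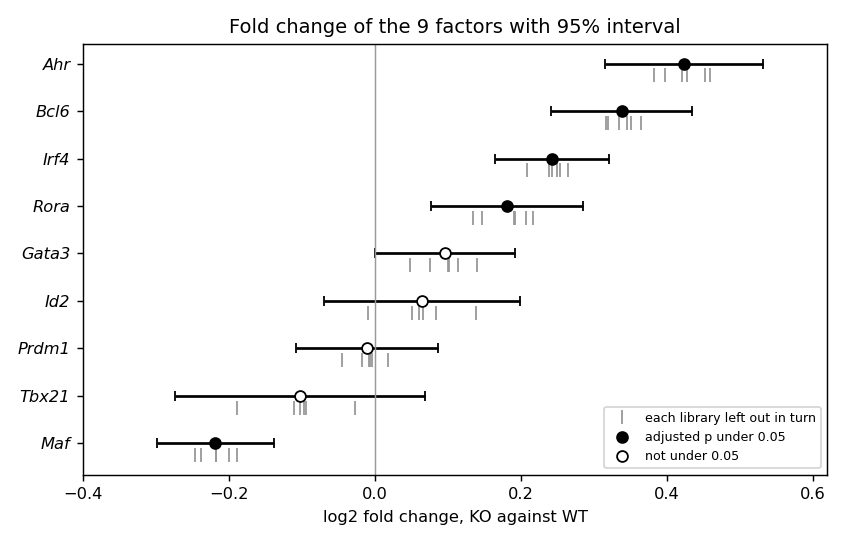
Log2 fold change of the 9 factors in KO against WT (horizontal axis) with its 95% interval. Filled points had an adjusted p under 0.05, open points did not, and grey ticks give the value with each library left out in turn, which for Ahr ran from 0.38 to 0.46 and for Id2 from -0.01 to 0.14.

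To compare the factors with each other, CPM were divided by the kilobases of exon sequence of each gene. In WT, Gata3 (35.6 ± 2.26 CPM per kilobase, SD, n = 3 libraries), Id2 (32.1 ± 3.36), Maf (29.8 ± 0.737) and Irf4 (26.6 ± 1.04) formed an upper group. The other 5 were several times lower, at 6.53 ± 0.288 for Prdm1, 5.17 ± 0.283 for Ahr, 4.56 ± 0.0992 for Bcl6, 4.42 ± 0.0504 for Tbx21 and 4.28 ± 0.236 CPM per kilobase for Rora. The ranges of the WT libraries overlapped between Gata3 and Id2, between Id2 and Maf, between Bcl6 and Tbx21 and between Tbx21 and Rora. Within each WT library, however, Gata3 stood above Id2 and Bcl6 above Tbx21. The order of Id2 and Maf and that of Tbx21 and Rora varied between WT libraries. In KO the order was Gata3, Id2, Irf4, Maf, Ahr, Prdm1, Bcl6, Rora and Tbx21, with no overlap between neighbours. Irf4 thus stood above Maf (31.5 ± 0.220 against 25.6 ± 1.03 CPM per kilobase), Ahr above Prdm1 (6.92 ± 0.265 against 6.47 ± 0.0617) and Rora above Tbx21 (4.85 ± 0.207 against 4.11 ± 0.447), each the reverse of the order of means in WT.

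Some of the factors oppose one another or share a niche with a relative, and 6 log2 ratios were formed within each library, of which 5 are described. Prdm1 and Bcl6 repress each other, and the log2 ratio of Prdm1 over Bcl6 was 0.17, 0.30 and 0.30 in WT and -0.05, -0.09 and -0.14 in KO. All KO ratios were lower, by -0.35 on the mean. The mean of Irf4 over Irf8 went from 1.30 ± 0.108 to 1.75 ± 0.032 (SD, n = 3 each), and that of Maf over Bach2, a repressor that maintains resting Tregs, from 0.98 ± 0.084 to 0.52 ± 0.030. Id2 over Id3 went from 0.28 ± 0.240 to 0.58 ± 0.065, with WT replicate 1 alone at 0.00023 and the difference at 0.16 without it. Tbx21 over Gata3 overlapped, with KO lower than WT by -0.21. An exact two-sided permutation test gave p = 0.1 for each of these ratios but Tbx21 over Gata3 (p = 0.2), and 0.1 is the smallest value that 3 against 3 libraries allow. After Benjamini-Hochberg adjustment over all 6 ratios these were 0.12 and 0.2 in the exact test, so no ratio could pass 0.05. Gene lengths differ, so the distance of a ratio from 0 has no meaning here, only its difference between groups.

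**Figure D3:**
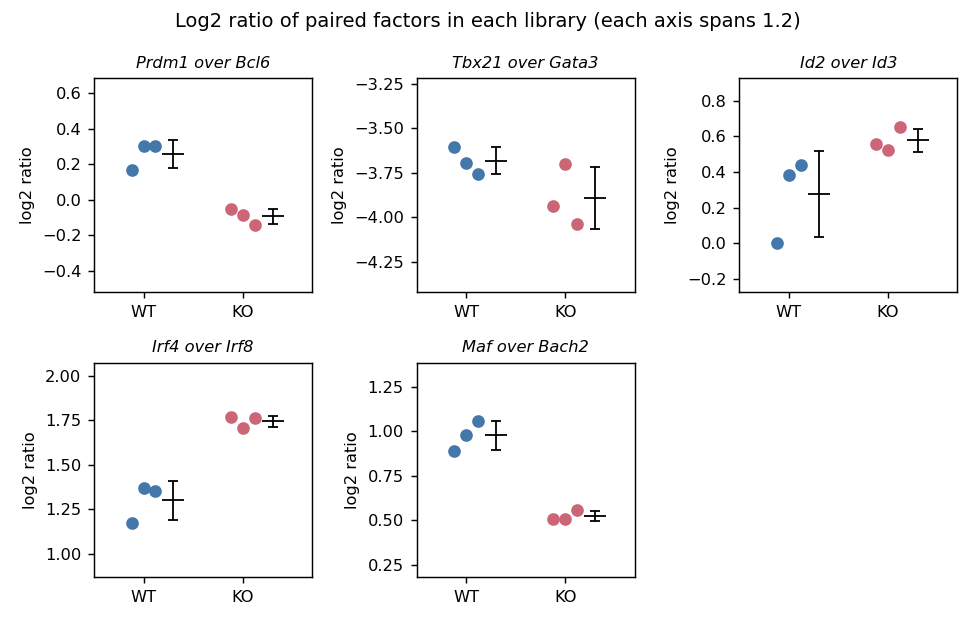
Log2 ratio of 5 pairs of factors in each WT (blue) and KO (red) library, with group mean and SD in black, on vertical axes that each span 1.2 log2 units. The groups separate for all pairs shown but Tbx21 over Gata3.

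Of 18 genes tested for proteins that bind DNA together with these factors or dimerize with them, 9 were called higher, 2 lower and 7 in neither direction, with a median log2 fold change of 0.12 against -0.0042 over all genes tested. The small MAF genes Maff and Mafk had the largest rises of this list, and all 5 small MAF and BACH genes in it were called higher. Maff rose from 39.7, 34.4 and 34.6 CPM in WT to 89.96, 86.7 and 86.5 CPM in KO, a log2 fold change of 1.27 (SE 0.052, edgeR adjusted p = 1.88e-09). Mafk rose by 0.59, Mafg by 0.25, Bach1 by 0.50 and Bach2 by 0.23 on the log2 scale, while Maf itself fell. The small MAF proteins lack an activation domain and pair with BACH and other bZIP proteins. Of the BATF and AP-1 genes called in this list, Batf (0.13), Junb (0.53) and Jun (0.17) were higher and Fos (-0.22) was lower. Among the partners of the remaining factors, the E protein gene Tcf12, a target of inhibition by Id2, rose by 0.16, and Cbfb, the common subunit of RUNX factors, fell, with a log2 fold change of -0.19. Arnt, which dimerizes with AHR, had a log2 fold change of 0.09 and an adjusted p of 0.102 in edgeR's test.

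Of 28 paralogs tested, 1 was called higher, 7 lower and 20 in neither direction, with a median log2 fold change of -0.0399. Eomes, the T-box relative of Tbx21, fell, with a log2 fold change of -0.35 (edgeR adjusted p = 0.00179). In the IRF family Irf8 (-0.20), Irf9 (-0.15) and Irf3 (-0.12) fell, and Irf4 was the one member called higher. Id3, which like Id2 blocks E proteins, fell, with a log2 fold change of -0.24, as did Prdm10 (-0.22), whereas Prdm4 rose by 0.13. Gata4 and Id4 did not pass the filter on low counts.

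**Figure D4:**
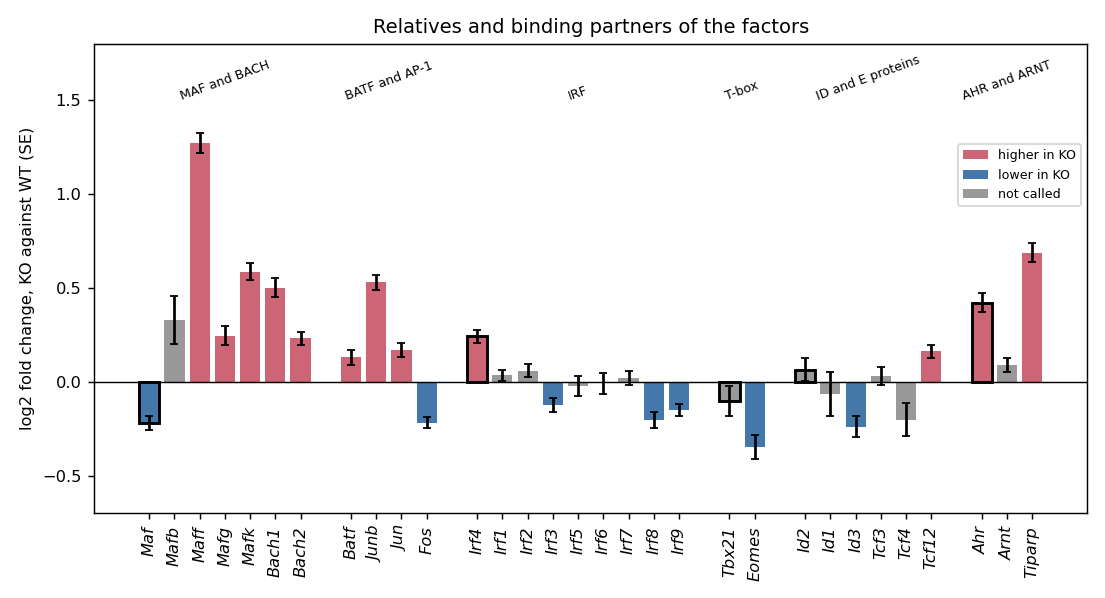
Log2 fold change in KO against WT (vertical axis, bars with standard errors) of the factors, outlined in black, and of their relatives and partners. Red bars were called higher, blue bars lower and grey bars in neither direction. The small MAF and BACH genes rise beside a lower Maf, and Eomes lies below Tbx21.

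Target genes of AHR moved in both directions. Of 8 tested, Tiparp, which encodes an ADP-ribosyltransferase that limits AHR, was called higher and Itgae, the integrin chain CD103, lower, and 6 were not called, with a median log2 fold change of -0.0822. Tiparp was at 26.0, 27.7 and 30.2 CPM in WT and at 44.2, 45.0 and 45.5 CPM in KO, all KO libraries being higher, with a log2 fold change of 0.69 (SE 0.052, edgeR adjusted p = 7.26e-07). Itgae was at 298, 309.2 and 298.3 CPM in WT and at 242.8, 243.3 and 242 CPM in KO, a log2 fold change of -0.31. Cyp1a1, the classical AHR target, was close to undetected, at 0.0519 to 0.28 CPM over the 6 libraries. Of 8 corepressor genes through which BCL6 acts, 2 were called higher, among them Bcor (0.13), 1 lower, Bcorl1 (-0.21), and 5 in neither direction, with a median of 0.0258.

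Genes of the helper programs moved in both directions. In the Th1 list, 1 of 14 genes was called higher and 5 lower, with a median log2 fold change of -0.092. The cytokine Ifng rose by 0.70 on the log2 scale, from between 8.32 and 9.99 CPM in WT to between 13.3 and 15.4 CPM in KO. The chemokine receptor Cxcr3 (-0.49), Eomes and the IL-12 receptor chain Il12rb1 (-0.22) fell. In the Th2 list, 4 of 13 were higher and 3 lower (median 0.0636): the phosphatase gene Dusp4 rose by 1.09, Nfil3 by 0.85 and the chemokine receptor Ccr8 by 0.62, whereas Ccr4 (-0.60) and the IL-33 receptor Il1rl1 (-0.41) fell. In the Th17 list, 6 of 14 were higher and 3 lower (median 0.113), with modest rises of Il6st (0.17), Hif1a (0.17), Batf (0.13) and Stat3 (0.10) and a lower level of Il6ra (-0.09). In the follicular list, 4 of 14 were higher and 4 lower (median -0.109). Its chemokine receptor Cxcr4 rose by 0.58 and the nuclear factor Tox2 by 0.40, while Cd200 (-0.25), the checkpoint receptor Pdcd1 (-0.22), Icos (-0.21) and Slamf6 (-0.15) fell beside the higher Bcl6.

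The Treg state lists likewise split. Of 20 effector Treg genes, 7 were called higher and 8 lower, with a median log2 fold change of -0.0723. The suppressive cytokine Il10, a known target of Maf and Prdm1, was at 18.9, 20.4 and 20.3 CPM in WT and at 37.3, 36.7 and 39.1 CPM in KO, a log2 fold change of 0.93 (SE 0.05, edgeR adjusted p = 3e-08). The inhibitory receptors Ctla4 and Lag3 rose by 0.65 and 0.52 and Ccr8, also in the Th2 list, by 0.62. The calcium-binding S100a6 (-0.93) and S100a4 (-0.77), the suppressive Fgl2 (-0.60) and the granule protease Gzmb (-0.57) fell. Of 14 resting Treg and naive T cell genes, 8 were higher and 2 lower, with a median of 0.11. The lymph node homing receptor Ccr7 rose by 0.91, from between 307.1 and 317.9 CPM to between 580.6 and 603.6 CPM, and Foxo1 by 0.24, Bach2 by 0.23 and the egress receptor S1pr1 by 0.20. Id3 was lower, as given above for the paralogs. Over all program lists without the 9 factors, 39 genes were higher and 30 lower, each gene counted once. Of all genes tested, 12% were called higher and 12.1% lower. Of those whose log2 CPM averaged 3 or more, 18.6% and 14.4% were. The lists were chosen with earlier results of these data known, and an excess over these shares was not tested.

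**Figure D5:**
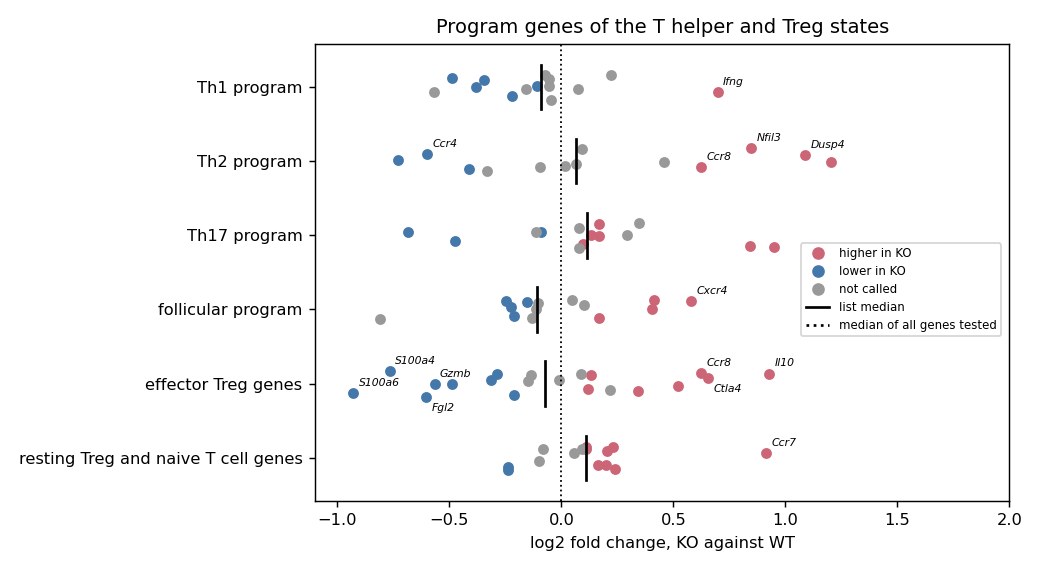
Log2 fold change in KO against WT (horizontal axis) of the tested genes of 6 program lists. Each point is a gene, red when called higher, blue when called lower and grey when neither, with list medians as black bars and the median of all genes tested as a dotted line. Only the genes with the largest changes among those whose log2 CPM averaged 3 or more are named. Every list holds genes on both sides of 0.

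The genes whose log2 CPM followed Ahr most closely over the 6 libraries, among 9089 others whose log2 CPM averaged 3 or more, were Gnl3, Ppia and Lin7c, with Pearson's r of 0.9992, 0.9988 and 0.9984. Those closest to Maf were Prkaa1, Pcmtd2 and Mccc1, with r of 0.9986, 0.997 and 0.9967. All points share the split between the groups, so these values describe the likeness of patterns only.

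The libraries held 133283969 to 209041812 counts. Zfp335 was at 115.2 to 124.4 CPM in WT and 14.3 to 15.1 CPM in KO. Xist, made from the inactive X chromosome of females, was at 0.187 to 0.423 CPM in WT and 123.9 to 144.7 CPM in KO, while the Y-linked Eif2s3y was at 44.1 to 49.7 and 45.3 to 48.1 CPM, and the sex of the mice is not given in the labels. Differences that go with Xist and those that go with the deletion cannot be told apart for any factor. The libraries carried the defining Treg transcript Foxp3, with means of 1136 ± 17.4 CPM for WT and 1052 ± 9.24 CPM for KO (SD, n = 3 each, log2 fold change -0.11, edgeR adjusted p = 0.0163), and of 8 Treg identity genes 3 were higher and 2 lower.

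Several factors are also expressed by other spleen cells, and RNA of some of these cells differed between the groups. In bulk RNA, fewer cells of a type and less RNA per cell cannot be told apart. All 8 B cell markers were lower in KO, their summed level being 52.8 to 58.1 CPM in WT and 23.6 to 25.5 CPM in KO, and B cells also express Bcl6 and Irf4. Of 4 plasma cell markers tested, 2 were lower (16.3 to 19.9 against 9.10 to 10.8 CPM), and these cells express Prdm1 and Irf4. None of 3 germinal center B cell markers was called in either direction (17.4 to 19.9 against 16.0 to 18.2 CPM, nearly all of it from S1pr2). Of 7 macrophage and monocyte markers, 3 were lower and none was higher (45.1 to 49.1 against 31.3 to 33.4 CPM). Of 7 dendritic cell markers 5 were lower (60.7 to 63.7 against 51.3 to 52.1 CPM). Most of that sum came from Irf8, with means of 53.0 CPM in WT and 46.0 CPM in KO. Both kinds of cell can express Ahr, and macrophages Maf. Of 7 markers of NK cells and innate lymphoid cells, 4 were lower and 1 was higher (85.2 to 93.2 against 70.0 to 72.8 CPM), in part through Il1rl1 and Eomes, which Tregs also express, and these cells express Tbx21, Gata3, Id2 and Rora in various subsets. All 6 neutrophil markers and all 5 red cell precursor markers were lower (17.5 to 23.2 against 0.878 to 1.30 CPM, and 28.9 to 34.1 against 1.40 to 1.69 CPM). The 2 CD8 T cell markers (8.34 to 9.71 against 8.62 to 8.65 CPM) and the 3 basophil and mast cell markers tested (0.446 to 0.614 against 0.174 to 0.516 CPM) were not called. Of 7 markers of conventional T helper cells, 2 were higher, Ifng and Il21, and none was lower (40.7 to 42.7 against 51.6 to 52.1 CPM). The 4 factors that rose moved against the B cell, macrophage and lymphoid markers and with the helper cell markers, Maf moved with the macrophage markers, and the part of these cells in the results was not tested.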

How the data were processed

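The authors deposited raw read counts per gene symbol for 6 libraries, with no normalization. The submitters' processing notes name HISAT2, DESeq2 and mm10, and the counting program and strand setting are not given in the sources used here. The libraries held 133283969 to 209041812 counts, and variance over mean between replicates was 6.26 to 9.35 for genes with few counts, so no replicate pair agreed within sampling noise and counting intervals were not used. Of 32285 rows, 40 repeated a symbol and were kept apart. In R 4.3.3, edgeR 4.0.16 was used with TMM scaling, filterByExpr by group, robust quasi-likelihood F-tests and Benjamini-Hochberg adjustment. A gene was called when its adjusted p was below 0.05. CPM used TMM-scaled library sizes, and log2 CPM a prior count of 2. Standard errors came from the F statistic. Positions and exon lengths came from GENCODE for GRCm38, the build called mm10, and the promoter stretches from RefSeq.

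The 9 factors and all lists were chosen with earlier results of these data known. Named genes were the 9 factors, per list up to 4 called genes in each direction whose log2 CPM averaged 3 or more, called partners, paralogs and targets, Zfp335 and Xist, and the 3 genes most like the called factors with the largest rise and fall. Other genes, such as Arnt, Cyp1a1, Eif2s3y and the markers, were named after their values were seen. Alternatives were other scalings (RLE, upper-quartile, library size), DESeq2 1.42.0, limma-voom (limma 3.58.1), edgeR's legacy method, other filters, a replicate block, omission of single libraries or of gene classes, counts divided by 4, the study's cutoffs, a prior count of 0.5 for the ratios, and, added after seeing the data, removal of trends on GC content or length and of genes on chromosomes X and Y. The fit was tested on simulated data. No column was left out. Some genes of the lists and 1 ratio are not reported here, but they stay in the counts, medians and adjustments.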

Additional observations from a re-analysis of the deposited data

How the results depend on the processing

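The 5 called factors kept their direction under all 21 alternatives, and Ahr, Bcl6, Irf4 and Maf kept an adjusted p under 0.05 in each fit. Rora lost it only without KO replicate 3. Leaving out each library in turn gave log2 fold changes of 0.38 to 0.46 for Ahr, 0.32 to 0.36 for Bcl6, 0.21 to 0.27 for Irf4, 0.13 to 0.22 for Rora, -0.25 to -0.19 for Maf, 0.048 to 0.14 for Gata3, -0.0096 to 0.14 for Id2, -0.045 to 0.018 for Prdm1 and -0.19 to -0.03 for Tbx21. Gata3 and Id2 passed the threshold without WT replicate 3, the sign of Id2 turned without WT replicate 1 (-0.0096) and that of Prdm1 without WT replicate 3 (0.018), and the cause was not tested. Between 3 and 6 factors were then called higher and 1 lower, 4 to 6 lay wholly above WT and 1 to 2 wholly below, 1341 to 2495 of all genes were called higher and 1399 to 2501 lower (1341 without WT replicate 2 and 1386 without KO replicate 2), and 29 to 44 listed genes were higher and 25 to 33 lower.

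With the cutoffs of the study (1.5-fold, P under 0.05 and adjusted P under 0.1) no factor was called, 0 higher and 0 lower, because the fold changes of Ahr (0.42), Bcl6 (0.34), Irf4 (0.24), Rora (0.18) and Maf (-0.22) are below the fold cutoff. Listed genes then numbered 13 higher and 7 lower, and all genes 446 higher and 757 lower.

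The replicate numbers are not stated to pair the libraries, deviations of same-numbered libraries correlated at 0.131, -0.0424 and 0.0157, and 3 of 6 libraries were closest to their own number in the other group. With the replicate block 4 factors were higher and 1 lower, as without it, with 2143 and 2084 genes called over all genes. The 6 ratios kept their direction under the 7 alternatives run for them, a prior count of 0.5 and the omission of each library. Counts were high for every factor (1499 or more per library), and with counts divided by 4 the same number were called, 4 higher and 1 lower.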
